A study of Mus musculus with 6 samples.

Results

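The heat-shock proteins and chaperones of long-term HSCs (LT-HSCs) were taken as the 73 genes, of 12179 in the normalized table, that belong to the families named Hsp, Dnaja, Dnajb, Dnajc, Cct or Bag, together with Tcp1 and the heat shock factors Hsf1 and Hsf2. The families were chosen by gene symbol alone and held 2 heat shock factors, 11 HSP70 and HSP110 genes, 3 HSP90 genes, the chaperonin genes Hspd1 and Hspe1, 8 subunits of the CCT chaperonin, 4 Dnaja, 11 Dnajb, 23 Dnajc and 6 Bag genes, and 3 genes with Hspb symbols (Hspb6, Hspbp1 and Hspbap1). A further 20 genes of the same families were in the count table of 27179 genes but not in the normalized table. Of these, 18 had no read in any library and none reached 10 reads in a library. The inducible gene Hspa1a had 5 reads in WT replicate 1 and 7 in Foxm1 HET replicate 1 and none elsewhere, and the small heat-shock gene Hspb1 had none in any library. A count of 0 leaves room for up to 3 reads in a library, and such floors cover counting error only.

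The study asked how loss of 1 copy of Foxm1, a transcription factor of the Fox family, alters gene expression in LT-HSCs. RNA-Seq was performed on CD150+CD48-LSK cells sorted from the BM of C57BL/6 mice at 8 weeks of age, with 3 WT libraries and 3 Foxm1 HET libraries, which the genotype labels call WT and Foxm1 heterozygous. The titles of the Foxm1 HET libraries name the floxed allele (FoxM1flPlus) and no Cre driver. The study worked with a Tie2-Cre line, which recombines in HSPCs and in endothelial cells, and with an Mx1-Cre line, and its RNA-Seq methods do not say which was used. The methods speak of 3 pairs of mice, and whether animals were pooled is not given. If some libraries did not come from separate animals, the p-values measure only the spread between these libraries.

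Molecular chaperones hold unfolded proteins in solution, help them to fold and pass those that fail on to degradation. HSP70 proteins bind short stretches of unfolded chain in a cycle driven by ATP, J-domain proteins (the Dnaj families) bring clients to HSP70 and start ATP hydrolysis, and BAG proteins and HSP110 proteins release ADP so that the cycle can turn. HSP90 acts later, on near-native clients such as kinases and receptors, and the ring chaperonins CCT in the cytosol and HSP60 with HSP10 in mitochondria fold proteins inside a chamber. Hsf1 is the main activator of heat-shock genes, through arrays of inverted GAA units called heat shock elements. The ER has a set of its own, with Hspa5 (BiP) as its HSP70 and Hsp90b1 (Grp94) as its HSP90, which the unfolded protein response switches on through ER stress elements. HSCs are known to make protein slowly and to depend on keeping it well folded.

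The promoters that carry these elements are shown first, because these are the letters through which both stress responses are known to act. RefSeq promoter windows (build GRCm38.p6, 250 bases before to 50 bases after a start site) were found for 60 of the 73 genes, in 79 windows. Heat shock elements of 2 units, spelled GAANNTTC or TTCNNGAA and each its own reverse complement, lay in 17 of the 79 windows (21.5%) and in 15.1% of all 32851 windows. Elements of 3 units, spelled GAANNTTCNNGAA and searched on both strands, contain the 2-unit forms. They lay in 6 of the 79 windows (7.59%) and in 0.603% of all windows. These 6 windows belong to Dnajb6, Hsph1, Hspd1 and Hspe1. Hspd1 and Hspe1 face away from each other on chromosome 1, and their windows overlap, so that both hold the same element. In the following windows capitals mark the heat shock elements. They are the windows of the HSP10 gene Hspe1 (chr1:55087898-55088197, plus strand), the HSP110 gene Hsph1 (chr5:149636287-149636586, minus strand), Dnajb6 (chr5:29735648-29735947, plus strand) and Dnajb4 (chr3:152193796-152194095, minus strand). The window of Dnajb4 holds a single 2-unit element that begins 14 bases before the start site. Dnajb4 is shown because its counts differed most between the genotypes by p in the edgeR test below.
Hspe1: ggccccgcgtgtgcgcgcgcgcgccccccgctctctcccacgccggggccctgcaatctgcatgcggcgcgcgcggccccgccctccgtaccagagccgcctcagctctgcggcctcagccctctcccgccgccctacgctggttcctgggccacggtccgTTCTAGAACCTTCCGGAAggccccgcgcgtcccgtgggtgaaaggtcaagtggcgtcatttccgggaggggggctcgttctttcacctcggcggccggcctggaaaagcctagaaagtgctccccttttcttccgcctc
Hsph1: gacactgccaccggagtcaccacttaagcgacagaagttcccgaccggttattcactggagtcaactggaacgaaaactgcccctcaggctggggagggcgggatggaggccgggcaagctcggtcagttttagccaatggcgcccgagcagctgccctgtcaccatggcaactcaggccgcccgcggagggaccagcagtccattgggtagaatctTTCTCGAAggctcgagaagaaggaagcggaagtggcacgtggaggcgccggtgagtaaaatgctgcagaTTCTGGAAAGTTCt
Dnajb6: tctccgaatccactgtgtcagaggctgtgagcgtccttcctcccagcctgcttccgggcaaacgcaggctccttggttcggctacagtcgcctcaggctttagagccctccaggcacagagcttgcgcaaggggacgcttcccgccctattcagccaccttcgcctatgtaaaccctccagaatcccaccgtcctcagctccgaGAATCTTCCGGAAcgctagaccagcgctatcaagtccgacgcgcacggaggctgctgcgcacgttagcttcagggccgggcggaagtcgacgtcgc
Dnajb4: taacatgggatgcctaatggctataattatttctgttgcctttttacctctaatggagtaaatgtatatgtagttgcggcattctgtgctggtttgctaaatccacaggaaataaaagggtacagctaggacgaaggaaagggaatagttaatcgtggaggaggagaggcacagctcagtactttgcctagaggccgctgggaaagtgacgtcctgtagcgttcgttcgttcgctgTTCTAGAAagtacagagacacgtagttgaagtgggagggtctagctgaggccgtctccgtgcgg

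The ER stress element was spelled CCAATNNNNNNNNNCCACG and searched on both strands. It lay in 3 of the 79 windows (3.80%), those of Hspa5, Hsp90b1 and Dnajc3, and in 0.119% of all windows. The window of Hsp90b1 held it at 2 places, the second on the opposite strand. Capitals mark the element in the windows of Hspa5 (chr2:34771840-34772139, plus strand), Hsp90b1 (chr10:86705395-86705694, minus strand) and Dnajc3 (chr14:118937682-118937981, plus strand), of which Hspa5 and Hsp90b1 were among the steadiest chaperone genes in these libraries and Dnajc3 was among those that separated the genotypes.
Hspa5: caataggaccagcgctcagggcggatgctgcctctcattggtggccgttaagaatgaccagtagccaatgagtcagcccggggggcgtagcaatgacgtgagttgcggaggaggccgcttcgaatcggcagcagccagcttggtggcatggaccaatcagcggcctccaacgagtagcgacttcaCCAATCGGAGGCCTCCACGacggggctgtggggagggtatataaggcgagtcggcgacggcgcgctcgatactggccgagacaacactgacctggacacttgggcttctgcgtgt
Hsp90b1: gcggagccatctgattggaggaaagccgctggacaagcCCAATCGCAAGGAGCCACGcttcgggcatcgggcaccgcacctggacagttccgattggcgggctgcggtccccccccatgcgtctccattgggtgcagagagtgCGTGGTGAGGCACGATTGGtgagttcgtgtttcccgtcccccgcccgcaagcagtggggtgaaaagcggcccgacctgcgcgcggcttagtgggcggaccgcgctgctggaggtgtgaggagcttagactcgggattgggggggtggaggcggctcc
Dnajc3: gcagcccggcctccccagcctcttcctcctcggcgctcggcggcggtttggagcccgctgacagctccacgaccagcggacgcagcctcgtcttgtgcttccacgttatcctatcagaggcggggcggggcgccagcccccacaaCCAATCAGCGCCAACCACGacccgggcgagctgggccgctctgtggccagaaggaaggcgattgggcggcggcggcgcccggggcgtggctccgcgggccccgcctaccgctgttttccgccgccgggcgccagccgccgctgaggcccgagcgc
The forkhead letters TAAACA, searched on both strands, lay in 6 of the 79 windows (7.59%) and in 13.4% of all windows. A match is a description of the letters in the window and not a measured binding site.

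**Figure D1:**
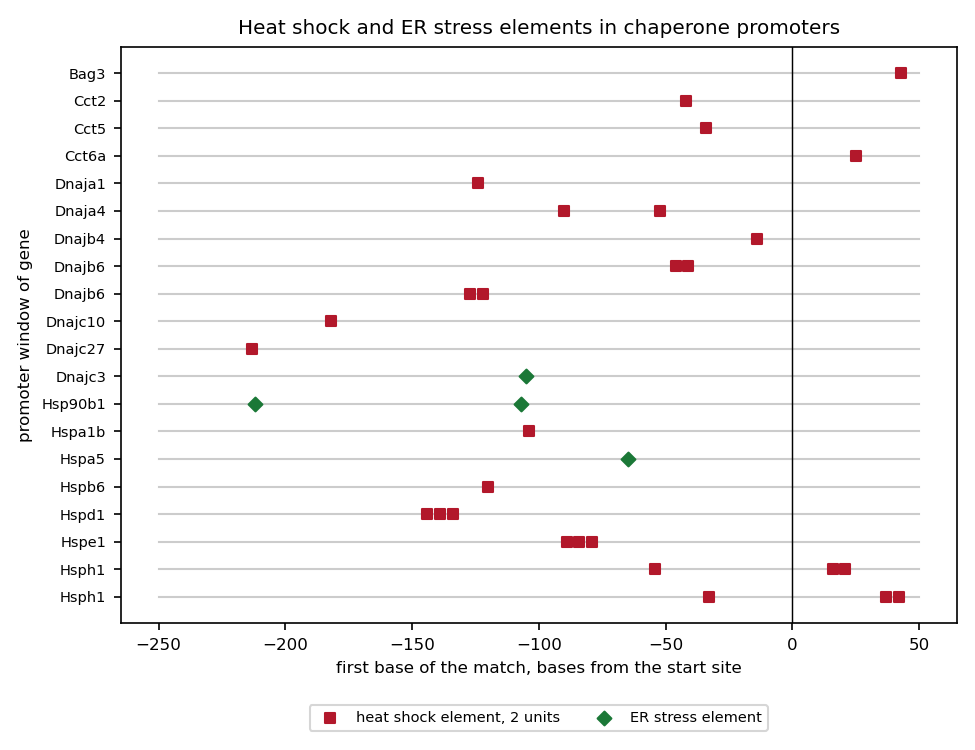
Distance from the start site (bases) of the first base of each 2-unit heat shock element (red squares) and each ER stress element (green diamonds) in the promoter windows (grey lines) of the chaperone genes that hold one. A gene with several start sites has several lines. The ER stress element was found in 3 windows, and close rows of squares mark the 3-unit elements of Dnajb6, Hspd1, Hspe1 and Hsph1.

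The libraries held 14573002 to 25798509 counted reads, and the chaperone genes took 0.521% to 0.822% of them. The number of the 73 genes with at least 10 reads was 57, 51 and 43 for WT against 66, 37 and 62 for Foxm1 HET, in the order of replicates 1, 2 and 3. Foxm1 HET replicate 2 was the shallowest library, found the fewest chaperone genes and had the lowest TMM scaling factor (0.453, against 0.757 to 1.67 in the others). All 6 libraries gave at least 10 reads for 29 of the 73 genes (39.7%), against 20.6% of the normalized table. Foxm1 itself had 1182, 2615 and 2942 WT reads against 659, 5 and 742 Foxm1 HET reads, and its log2 CPM did not overlap between the genotypes. Of 14 LT-HSC marker genes, 9 to 14 reached 10 reads in each library, with a summed CPM (reads scaled to library size) of 2664 to 11876. Slamf1, which encodes the sorted marker CD150, had no read in WT replicate 3 or in Foxm1 HET replicate 2. Of 10 granulocyte marker genes, 9 or 10 reached 10 reads in each library, with a summed CPM from 978 in Foxm1 HET replicate 3 to 21209 in WT replicate 3. B cell markers reached 10 reads for 0 or 1 of 8 genes, T cell markers for 0 to 3 of 7, megakaryocyte markers for 1 to 4 of 8, macrophage markers for 2 to 4 of 7, erythroid markers for 3 to 8 of 9 and endothelial markers for 2 to 5 of 5. The part of these other cells in the chaperone results was not tested, and in bulk libraries fewer cells of a type and less RNA per cell cannot be told apart.

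**Figure D2:**
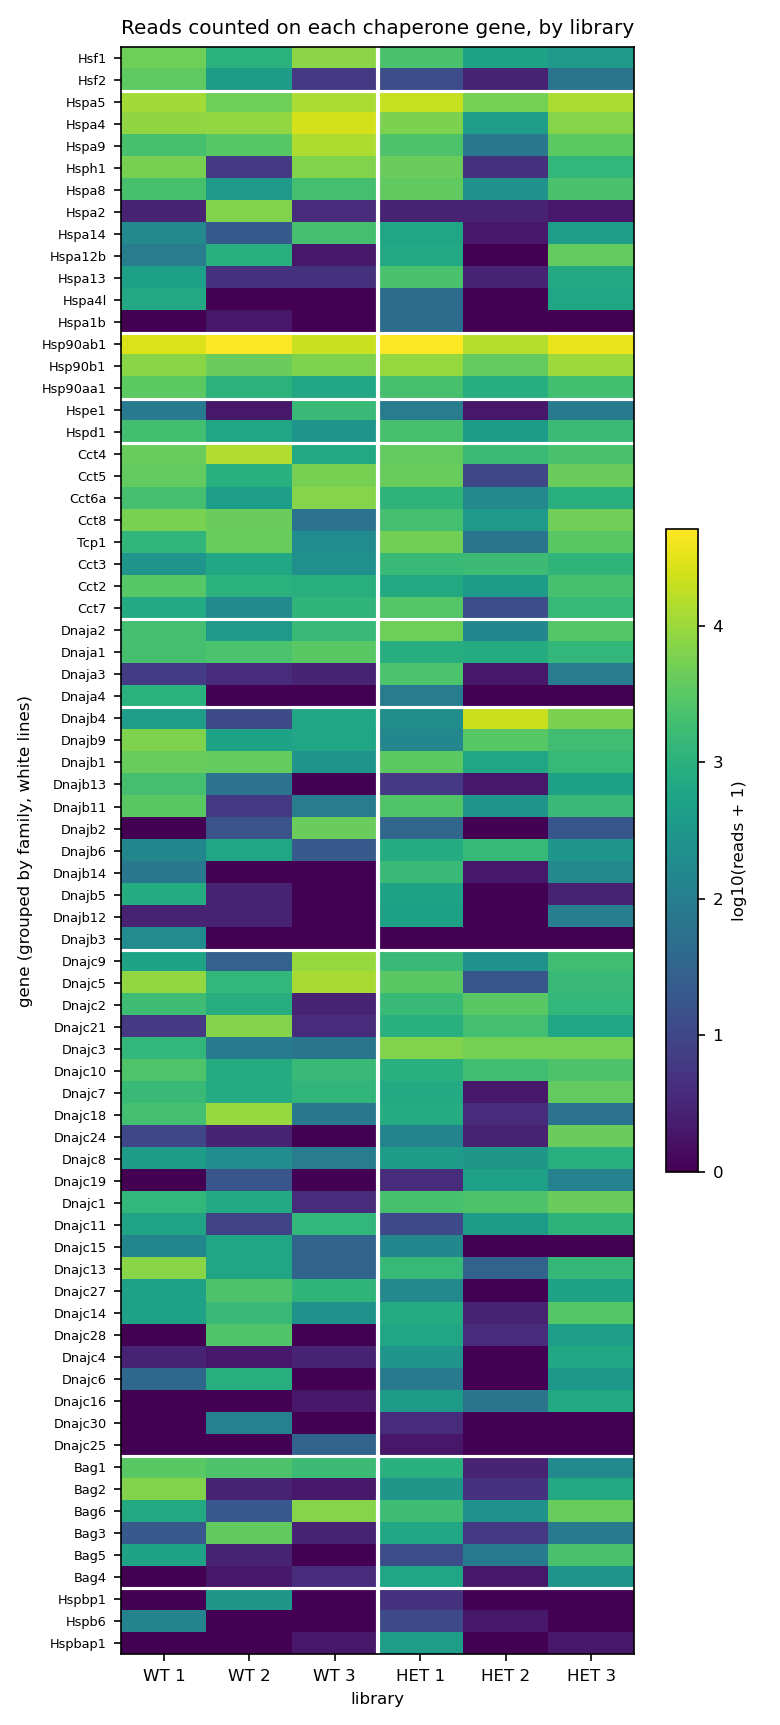
Reads counted on each of the 73 chaperone genes (rows, grouped by family between white lines and ordered within a family by mean level per length) in each library (columns, 3 WT and 3 Foxm1 HET), coloured by log10(reads + 1). Hsp90ab1, Hspa5 and Hsp90b1 were bright in every library, while most other rows changed from bright to dark within a genotype.

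No chaperone gene differed between Foxm1 HET and WT LT-HSCs by edgeR or limma after adjustment over all genes, and 2 did by DESeq2. Of the 73 genes, 58 had enough reads for the quasi-likelihood test of edgeR, and 0 of the 58 had an adjusted p under 0.05, where 0.329% of the 8195 genes tested did. DESeq2 gave no p for some of the 8195 genes, among them Dnajb2, Dnajb4, Dnajc3, Bag2 and Bag3. It called 194 genes at an adjusted p under 0.05, and of the chaperone genes Dnajc16 (log2 fold change 9.66, adjusted p = 0.0017) and Hsf2 (-6.20, adjusted p = 0.0343). Limma, run with voom or on the normalized table, called 0 chaperone genes. At an unadjusted p under 0.05, edgeR gave 5 of 58, against 6.03% of all genes tested. These were Dnajb4, Dnajc3 and Dnajc16, higher in Foxm1 HET LT-HSCs (3.44% of all genes), and Dnajb2 and Dnajc18, lower in them (2.59% of all genes). The genotypes did not overlap in log2 CPM for 7 of the 58 genes, against 8.68% of all genes tested. Foxm1 HET LT-HSCs were above WT for 3 of them, Dnajc3, Dnajc16 and Cct3 (4.12% of all genes), and below WT for 4, Hspa4, Hspa9, Bag1 and Dnajc27 (4.55% of all genes). On GRCm38 these 10 genes lie at chr3:152183955-152210299 (Dnajb4), chr14:118937932-118981702 (Dnajc3), chr4:141761998-141790644 (Dnajc16), chr1:75236423-75245692 (Dnajb2), chr18:35671103-35703144 (Dnajc18), chr3:88297116-88321767 (Cct3), chr11:53259814-53300479 (Hspa4), chr18:34937414-34954351 (Hspa9), chr4:40936398-40948294 (Bag1) and chr12:4082574-4110612 (Dnajc27).

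The median log2 fold change of the 58 genes was -0.76, with 20 genes above 0 and 38 below it. Over all genes tested the median was -0.26, with 45.4% of genes above 0 and 54.6% below. The biological coefficient of variation of the fit was 1.66, and the median standard error of a log2 fold change was 2.22 for the chaperone genes and 2.59 for all genes. The chaperone median minus that of all genes was -0.50, and with RLE, upper-quartile and library-size scaling it was -0.24, -0.52 and -0.59. It was -0.028 with at least 10 counts in every library, -0.15 with a replicate block and -1.04 with no filter, while over the 3 scalings the median of all genes itself moved as far as 0.14. For 48 of the 73 genes (65.8%), 1 library held more than 50% of the summed CPM, which was so for 73.9% of the normalized table. That library was WT for 29 of the 48 genes and Foxm1 HET for 19.

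**Figure D3:**
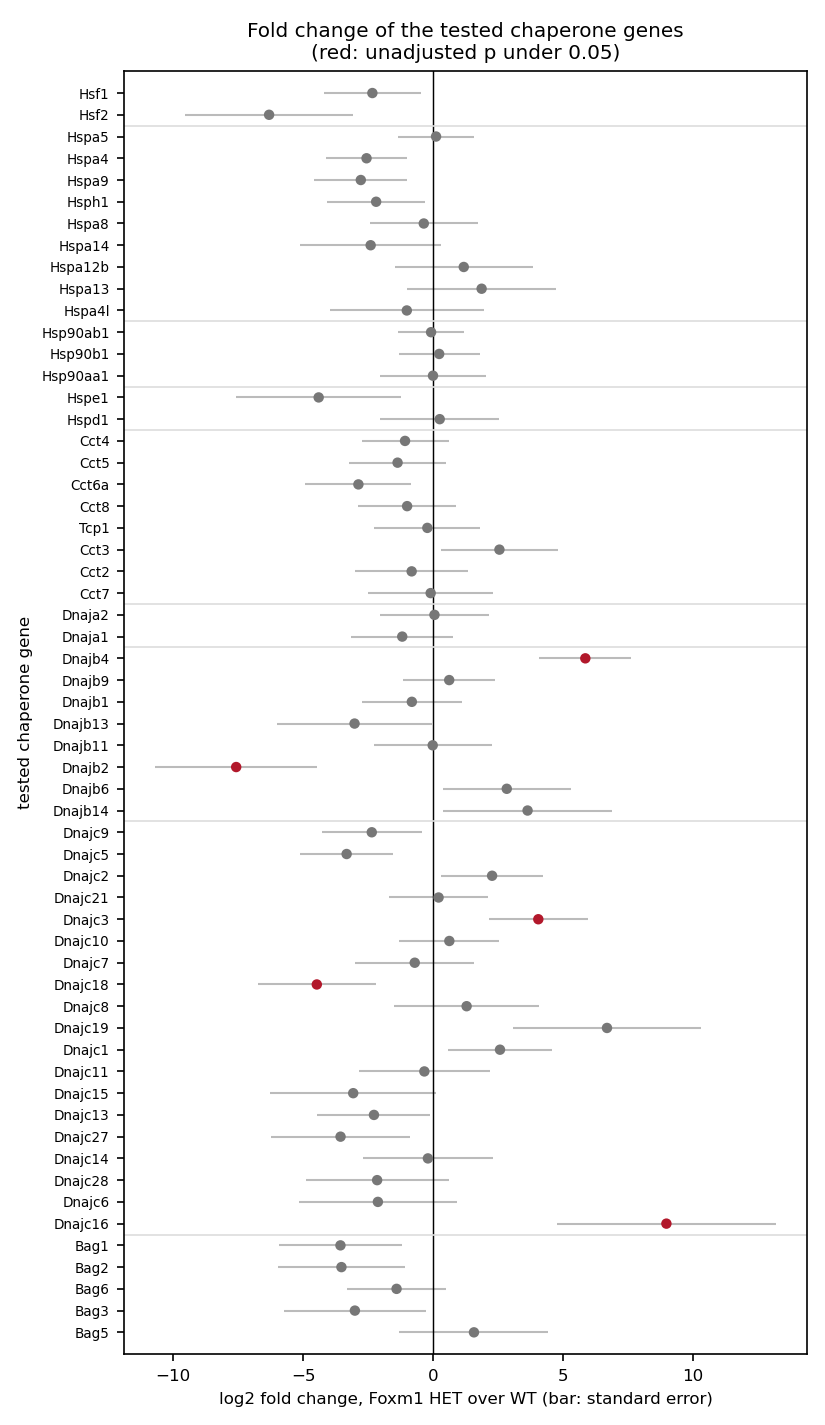
Log2 fold change of Foxm1 HET over WT for the 58 tested chaperone genes, by family (grey lines), with the standard error as a bar, from edgeR. Red points mark the 5 genes with an unadjusted p under 0.05, and none had an adjusted p under 0.05. The widest bar is that of Dnajc16 and the narrowest that of Hsp90ab1.

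Both heat shock factors had lower fitted levels in Foxm1 HET LT-HSCs, and neither passed the edgeR test after adjustment. Hsf1, the main activator of the heat-shock response, had 4755, 1008 and 7749 WT reads against 2298, 508 and 347 Foxm1 HET reads, in the order of replicates 1, 2 and 3. Replicates 1 and 3 of WT were above all Foxm1 HET libraries and replicate 2 lay among them after scaling. The log2 CPM of Hsf1 was 7.38 ± 1.75 for WT against 5.09 ± 1.77 for Foxm1 HET (SD, n = 3 each; log2 fold change -2.34, standard error 1.86, edgeR adjusted p = 0.982). Hsf2, which acts in development and together with Hsf1, had 3432, 381 and 5 WT reads against 12, 2 and 63 Foxm1 HET reads. Here 2 WT libraries stood above every Foxm1 HET library and WT replicate 3 was among the Foxm1 HET libraries. For Hsf2 the log2 fold change was -6.31 (standard error 3.23, edgeR unadjusted p = 0.0504, adjusted p = 0.830), just outside the unadjusted threshold, while DESeq2 called it (-6.20, adjusted p = 0.0343), and WT replicate 1 held 88.9% of its summed CPM.

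Among the HSP70 and HSP110 genes, the ER gene Hspa5 had a fold change near 0, and Hspa4 and Hspa9 were the genes whose genotypes did not overlap. Hspa5, the ER HSP70 that binds new chains and holds the stress sensors inactive, had 11426, 4758 and 12788 WT reads against 20071, 5259 and 12981 Foxm1 HET reads. The level per length ran from 80.5 to 311 RPKM (reads scaled to gene length and TMM-scaled library size), and the libraries of the 2 genotypes were interleaved. Its log2 CPM was 8.79 ± 0.98 for WT against 9.0 ± 0.70 for Foxm1 HET (SD, n = 3 each; log2 fold change 0.11, standard error 1.46, edgeR adjusted p = 0.998). Hspa8, the constitutive HSP70 of the cytosol, had 2196, 348 and 2051 WT reads against 3652, 252 and 2275 Foxm1 HET reads (log2 fold change -0.36, standard error 2.08, edgeR adjusted p = 0.998). The genotypes overlapped for Hspa8, and the level per length of Hspa5 was 4.18 to 16.8 times that of Hspa8 within a library. The inducible Hspa1b had 1 read in WT replicate 2, 45 in Foxm1 HET replicate 1 and none in the other 4 libraries, and was not tested.

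Hspa4, an HSP110 nucleotide exchange factor for HSP70, had 8369, 8885 and 24938 WT reads against 5953, 431 and 7172 Foxm1 HET reads. Every Foxm1 HET library was below every WT library in reads and in log2 CPM (9.26 ± 1.16 against 6.92 ± 0.75, SD, n = 3 each), with p = 0.1 by the two-sided exact permutation test, the smallest p that 3 libraries against 3 allow. The fitted log2 fold change was -2.56 (standard error 1.57, edgeR adjusted p = 0.938). Hspa9, the mitochondrial HSP70 that pulls proteins through the inner membrane, had 2190, 2995 and 13370 WT reads against 2442, 75 and 3315 Foxm1 HET reads. The reads of Hspa9 overlapped between the genotypes, and only after scaling did its log2 CPM separate (7.80 ± 1.67 for WT against 5.29 ± 1.52 for Foxm1 HET, SD, n = 3 each). With library-size scaling and in the normalized table the genotypes of Hspa9 overlapped. The log2 fold change of Hspa9 was -2.78 (standard error 1.78, edgeR adjusted p = 0.941). For both genes WT replicate 3 was the highest library, with 57.2% of the summed CPM of Hspa4 and 68.4% of that of Hspa9.

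Hsph1, the HSP110 gene whose promoter carries a 3-unit heat shock element, had 5588, 5 and 6458 WT reads against 4257, 4 and 1300 Foxm1 HET reads. Replicate 2 of each genotype was near 0, and the genotypes overlapped (log2 fold change -2.19, standard error 1.89, edgeR adjusted p = 0.985). The related gene Hspa4l had 680, 0 and 0 WT reads against 45, 0 and 586 Foxm1 HET reads, so that 3 of 6 libraries had none. The testis-enriched Hspa2 had 6668 reads in WT replicate 2 and 1 to 3 in each other library, and was not tested. Hspa12b, Hspa13 and Hspa14 had log2 fold changes of 1.18, 1.86 and -2.41 with standard errors from 2.65 to 2.87.

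The 3 HSP90 genes had log2 fold changes near 0 and the smallest median standard error of the families (1.55). Hsp90ab1, the constitutive HSP90 of the cytosol, had 28682, 51161 and 20598 WT reads against 49829, 15615 and 36352 Foxm1 HET reads. Per length, it was the highest of the 73 genes in 5 of the 6 libraries, with 347 to 962 RPKM, and came second in Foxm1 HET replicate 2, behind Dnajb4. Its log2 CPM was 10.61 ± 0.47 for WT against 10.45 ± 0.74 for Foxm1 HET (SD, n = 3 each; log2 fold change -0.080, standard error 1.26, edgeR adjusted p = 0.998). The genotypes overlapped fully, and the sign of the fold change turned with RLE scaling (0.48) and upper-quartile scaling (0.29). Hsp90aa1, the inducible form, had 3350, 1078 and 629 WT reads against 2166, 876 and 1898 Foxm1 HET reads (log2 fold change -0.0061, standard error 2.03, edgeR adjusted p = 0.999). Within each library Hsp90ab1 was 9.73 to 54.0 times as high per length as Hsp90aa1. Hsp90b1, the ER form, had 7467, 4211 and 6359 WT reads against 9229, 3825 and 10419 Foxm1 HET reads (log2 fold change 0.23, standard error 1.55, edgeR adjusted p = 0.998). Hspa5 and Hsp90b1, whose promoters both hold an ER stress element, kept a narrow ratio, with Hspa5 at 1.19 to 2.29 times the level per length of Hsp90b1 in the 6 libraries. Dnajc3, which also holds the element, did not keep to them and ran from 0.691 to 155 RPKM.

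**Figure D4:**
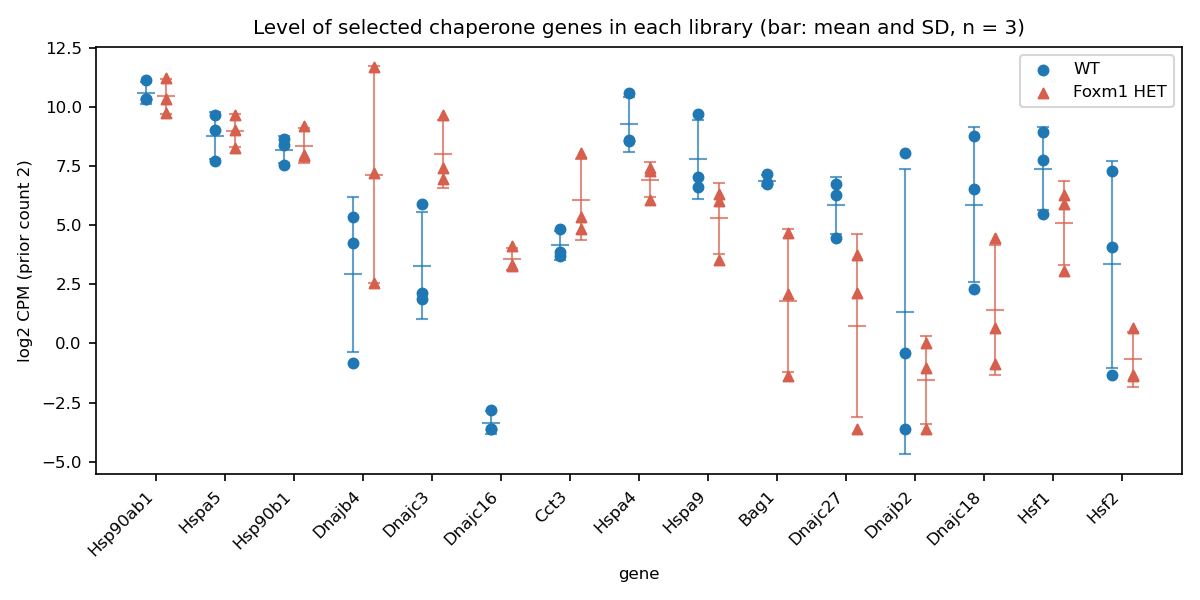
Log2 CPM (counts scaled to the TMM-scaled library size on a log2 scale, prior count 2) of 15 chaperone genes in the 3 WT libraries (blue circles) and the 3 Foxm1 HET libraries (red triangles), with the mean and SD as a bar (n = 3). Hsp90ab1, Hspa5 and Hsp90b1 stayed close together, Dnajc3, Dnajc16, Cct3, Hspa4, Hspa9, Bag1 and Dnajc27 did not overlap between the genotypes, and the others spread widely within a genotype.

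The mitochondrial chaperonin genes did not keep a common ratio. Hspd1 (HSP60), which forms the ring, had 1936, 607 and 275 WT reads against 2214, 386 and 1632 Foxm1 HET reads. Hspe1 (HSP10), which caps the ring, had 83, 1 and 1566 WT reads against 95, 1 and 88 Foxm1 HET reads. Although both genes share the promoter shown above, the level per length of Hspd1 over that of Hspe1 ran from 0.0578 in WT replicate 3 to 199.9 in WT replicate 2. Hspd1 had a log2 fold change of 0.25 (standard error 2.29) and Hspe1 one of -4.41 (standard error 3.17), with edgeR adjusted p = 0.998 and 0.970, and the genotypes overlapped for both. WT replicate 3 alone held 92.0% of the summed CPM of Hspe1. Other genes, many of them named as pseudogenes or predicted genes, hold the same 50-base stretches as 42.1% of Hspd1 and 22.8% of Hspe1, so reads of 50 bases could have been lost or shared there.

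The 8 CCT subunits, which assemble into 1 ring in equal numbers and fold actin and tubulin, did not have equal RNA levels in any library. The highest subunit was 16.2, 102 and 138 times the lowest, per length, for WT replicates 1, 2 and 3 against 6.38, 175 and 5.52 times for Foxm1 HET. The lowest subunit was Cct3 in WT replicate 1, Cct7 in WT replicate 2 and in Foxm1 HET replicate 2, Cct8 in WT replicate 3, Cct2 in Foxm1 HET replicate 1 and Cct6a in Foxm1 HET replicate 3. The highest was Cct8, Cct4 and Cct6a in the WT libraries and Cct5, Cct3 and Cct5 in the Foxm1 HET libraries. No subunit was thus the highest or the lowest throughout.

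Of the 8 subunits, 7 had a log2 fold change below 0 and Cct3 one above 0, though the signs of Cct7, Tcp1 and Cct8 each turned under at least 1 alternative scaling or test and that of Cct4 when 1 library was left out. Cct3 had 288, 653 and 234 WT reads against 1553, 1694 and 1211 Foxm1 HET reads. Each Foxm1 HET library had more Cct3 reads than each WT library. In log2 CPM the gap was narrow, since WT replicate 2 and Foxm1 HET replicate 3 both stood at 4.86 when rounded (4.15 ± 0.62 for WT against 6.08 ± 1.71 for Foxm1 HET, SD, n = 3 each). With RLE scaling the genotypes of Cct3 overlapped. The log2 fold change of Cct3 was 2.55 (standard error 2.26, edgeR adjusted p = 0.986), and Foxm1 HET replicate 2 held 67.5% of its summed CPM. Cct6a was at the other end, with 2131, 432 and 7136 WT reads against 1134, 162 and 907 Foxm1 HET reads (log2 fold change -2.88, standard error 2.04, edgeR adjusted p = 0.962). The genotypes overlapped for Cct6a, since WT replicate 2 fell below the Foxm1 HET libraries in log2 CPM.

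The other subunits lay between these. Cct2 had 3007, 1005 and 879 WT reads against 724, 392 and 2222 Foxm1 HET reads (log2 fold change -0.83). Cct4 had 4167, 14258 and 731 WT reads against 3841, 1644 and 2259 Foxm1 HET reads (-1.08). Cct5 had 3722, 987 and 5434 WT reads against 4168, 9 and 4296 Foxm1 HET reads (-1.37). The genotypes overlapped for each of these 3 subunits. Cct7 had 769, 175 and 1204 WT reads against 2814, 12 and 1441 Foxm1 HET reads (-0.096). Cct8 had 5658, 4233 and 60 WT reads against 1990, 358 and 4836 Foxm1 HET reads (-1.0). Tcp1, the first CCT subunit gene by name, had 1280, 4169 and 197 WT reads against 5069, 64 and 3143 Foxm1 HET reads (-0.22). Standard errors of these 6 fold changes ran from 1.67 to 2.41, larger than each fold change in size, and every adjusted p from edgeR was 0.998. Exons of Cct2, Cct6a and Tcp1 overlap other annotated genes over 27.2%, 32.0% and 24.2% of their length, and whether the counting used strand is not given.

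Summed over the 8 subunits, the level was 459, 552 and 505 RPKM for WT against 266, 333 and 232 RPKM for Foxm1 HET. All 3 Foxm1 HET sums lay below the WT sums with TMM scaling. With library-size scaling they overlapped (517, 555 and 382 RPKM in WT, and 411, 151 and 387 RPKM in Foxm1 HET), so this order depended on the scaling. The sums were not tested.

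**Figure D5:**
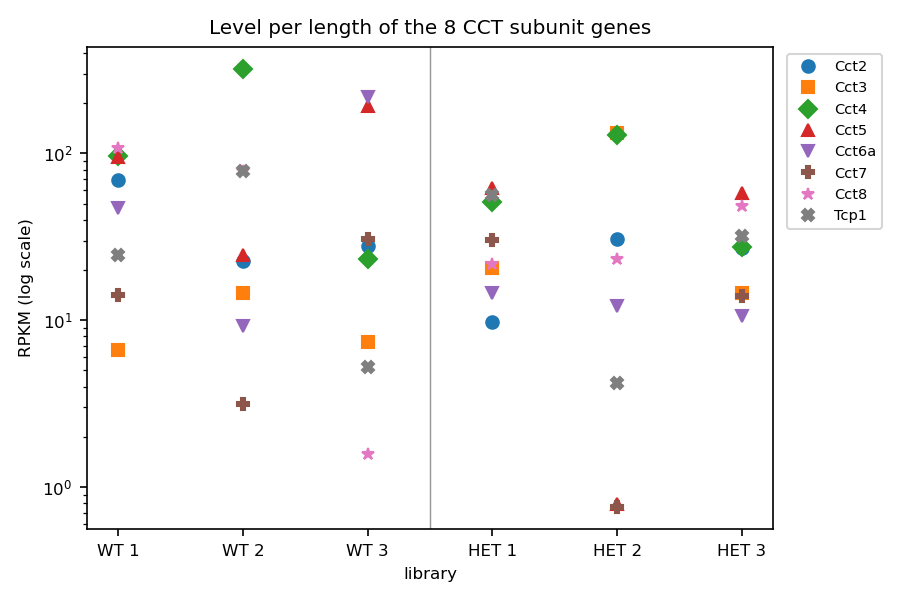
Level per length (RPKM, log scale) of the 8 CCT subunit genes, 1 symbol per gene, in the 3 WT and the 3 Foxm1 HET libraries. In each library the subunits spread over a range of at least 5.52 times, and the order of the subunits changed from library to library.

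The Dnaja genes, the J-domain proteins closest to the bacterial form, had overlapping genotypes where they were tested. Dnaja1 had 2066, 2343 and 3204 WT reads against 860, 777 and 1325 Foxm1 HET reads (log2 fold change -1.19, standard error 1.97, edgeR adjusted p = 0.998). Its reads were higher in each WT library than in each Foxm1 HET library, but its log2 CPM overlapped, since Foxm1 HET replicate 2 was scaled upwards. Of its exon bases, 27.3% overlap other annotated genes, Smu1 among them. Dnaja2 had 2034, 339 and 1561 WT reads against 4615, 151 and 2813 Foxm1 HET reads (log2 fold change 0.050, standard error 2.10). Dnaja3 and Dnaja4 were not tested. Dnaja3, the mitochondrial member, had 2360 reads in Foxm1 HET replicate 1, 98 in Foxm1 HET replicate 3 and 1 to 6 in the others. Dnaja4 had 1018 reads in WT replicate 1, 94 in Foxm1 HET replicate 1 and none in the others.

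Of the Dnajb genes, which bind unfolded chains or deliver them for degradation, Dnajb4 had the smallest p of all chaperone genes in the edgeR test. It had 417, 11 and 644 WT reads against 218, 21365 and 6091 Foxm1 HET reads. Replicates 2 and 3 of Foxm1 HET were above every WT library, whereas Foxm1 HET replicate 1 lay between WT libraries, so the genotypes overlapped. Its log2 CPM was 2.92 ± 3.28 for WT against 7.14 ± 4.58 for Foxm1 HET (SD, n = 3 each), with a log2 fold change of 5.86 (standard error 1.77, edgeR unadjusted p = 0.000954, adjusted p = 0.130). Foxm1 HET replicate 2 held 94.0% of its summed CPM. Without that library the log2 fold change was 2.03 (edgeR unadjusted p = 0.408), and DESeq2 gave no p for the gene. The level per length of Dnajb4 in Foxm1 HET replicate 2 was 1128 RPKM, above that of Hsp90ab1.

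Dnajb2, which passes clients of HSP70 to the proteasome, had 0, 15 and 4219 WT reads against 35, 0 and 17 Foxm1 HET reads. A single library, WT replicate 3, held 99.3% of the summed CPM, and the other 5 libraries overlapped. The log2 fold change of -7.58 (standard error 3.11, edgeR unadjusted p = 0.0148, adjusted p = 0.560) became 0.44 without WT replicate 3 (edgeR unadjusted p = 0.870), and without Foxm1 HET replicate 2 or 3 the unadjusted p was 0.0628. Dnajb1, the classical HSP40 partner of HSP70 and a target of Hsf1, had 4194, 3961 and 272 WT reads against 3362, 610 and 1417 Foxm1 HET reads. The genotypes overlapped for Dnajb1 (log2 fold change -0.82, standard error 1.94, edgeR adjusted p = 0.998). Dnajb9, an ER member that holds the stress sensor Ern1 inactive, had 6302, 531 and 582 WT reads against 153, 3110 and 1872 Foxm1 HET reads. It was also overlapping (log2 fold change 0.62, standard error 1.78), with a sign that turned with library-size scaling (-0.32). Dnajb6, with its 3-unit heat shock element, had a log2 fold change of 2.83 (standard error 2.47, edgeR adjusted p = 0.985).

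Of the 23 Dnajc genes, a family that carries the J domain on otherwise unlike proteins, 19 were tested and 3 had an unadjusted p under 0.05 in edgeR, against 6.03% of all genes tested. Dnajc3 (p58IPK), an ER protein that restrains the stress kinases of translation, had 1302, 81 and 68 WT reads against 6521, 5222 and 5215 Foxm1 HET reads. All 3 Foxm1 HET libraries had similar reads and lay above every WT library, of which replicate 1 was the highest. The Foxm1 HET libraries differed in depth, and after scaling replicates 1, 2 and 3 stood at 33.0, 155 and 24.0 RPKM. Foxm1 HET replicate 2 held 69.0% of the summed CPM. The log2 CPM was 3.29 ± 2.25 for WT against 8.01 ± 1.44 for Foxm1 HET (SD, n = 3 each), with p = 0.1 by the two-sided exact permutation test, the smallest the design allows. Its log2 fold change was 4.05 (standard error 1.90, edgeR unadjusted p = 0.0335, adjusted p = 0.762). With any 1 library left out it ran from 2.82 to 6.56, with a sign that its separated libraries largely fix in advance. Without Foxm1 HET replicate 2, WT replicate 2 or WT replicate 3 the unadjusted p was 0.179, 0.101 or 0.0906 in edgeR. It was 0.0675 in edgeR with library-size scaling and 0.0736 with limma-voom, and under 0.05 in 9 of the 15 alternative fits. DESeq2 gave no p for this gene either.

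Dnajc16, an ER-anchored member, was hardly counted in WT. It had 0, 0 and 1 WT reads against 371, 64 and 715 Foxm1 HET reads, so the genotypes did not overlap. Over the group, the scaled ratio was 808, with a 95% exact interval from 145 to 31939.6 that covers counting error only. The fitted log2 fold change was 8.98 (standard error 4.22, edgeR unadjusted p = 0.0333, adjusted p = 0.762) and depends on the prior count. It remained above 0 in each alternative fit, a sign that the nearly empty WT libraries largely fix in advance. Its unadjusted p in edgeR was 0.0860 and 0.0840 without WT replicate 1 or 2 and 0.0503 and 0.0560 without Foxm1 HET replicate 1 or 3.

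Dnajc18, another J-domain protein of the ER membrane, had 2018, 9801 and 78 WT reads against 830, 3 and 62 Foxm1 HET reads. The 2 highest libraries were WT, and Foxm1 HET replicate 1 lay above WT replicate 3, so that the genotypes overlapped. The log2 fold change of Dnajc18 was -4.48 (standard error 2.26, edgeR unadjusted p = 0.0477, adjusted p = 0.810). Its unadjusted p in edgeR was 0.0545 and 0.398 without WT replicate 1 or 2 and 0.0983 and 0.160 without Foxm1 HET replicate 2 or 3. Dnajc27, which carries a Rab-like domain, had 490, 2450 and 1228 WT reads against 166, 0 and 549 Foxm1 HET reads. Every Foxm1 HET library was below every WT library in log2 CPM (5.83 ± 1.20 for WT against 0.75 ± 3.86 for Foxm1 HET, SD, n = 3 each; log2 fold change -3.56, standard error 2.68, edgeR adjusted p = 0.971). In reads, Foxm1 HET replicate 3 was above WT replicate 1, so that the scaling separated the groups.

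By the mean level per length over all 6 libraries, Dnajc9 and Dnajc5 were the highest of the Dnajc genes (75.6 and 61.7 RPKM), with 80.2% and 57.2% of their summed CPM in WT replicate 3. In Foxm1 HET the means of Dnajc9 and Dnajc5 were 24.6 and 11.2 RPKM, below those of Dnajc2 (92.2 RPKM), Dnajc3 (70.8 RPKM) and Dnajc21 (56.2 RPKM). Dnajc9, a histone-binding J protein, had 539, 29 and 9493 WT reads against 1540, 235 and 1829 Foxm1 HET reads. Its Foxm1 HET libraries agreed closely in log2 CPM (5.33 ± 0.13, SD, n = 3), while WT spread on both sides of them (4.76 ± 4.38, SD, n = 3). Dnajc5, the cysteine string protein of secretory vesicles, had 8860, 1320 and 12431 WT reads against 3209, 17 and 1508 Foxm1 HET reads. It was just outside the threshold (log2 fold change -3.33, standard error 1.79, edgeR unadjusted p = 0.0634, adjusted p = 0.882), and the genotypes overlapped at WT replicate 2 and Foxm1 HET replicate 1. Dnajc19, a mitochondrial import factor, also lay just outside, with 0, 17 and 0 WT reads against 3, 498 and 116 Foxm1 HET reads (log2 fold change 6.69, standard error 3.63, edgeR unadjusted p = 0.0656). The remaining tested Dnajc genes had log2 fold changes from -3.08 to 2.57.

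Of the 5 tested Bag genes, the exchange factors that bind HSP70 through a BAG domain, 4 had log2 fold changes below 0. Bag1, which links HSP70 to the proteasome, had 3146, 2464 and 1686 WT reads against 971, 2 and 177 Foxm1 HET reads. The WT libraries were close to one another, and all Foxm1 HET libraries were below them. Its log2 CPM was 6.88 ± 0.24 for WT against 1.81 ± 3.03 for Foxm1 HET (SD, n = 3 each), with p = 0.1 by the two-sided exact permutation test, the smallest possible here (log2 fold change -3.57, standard error 2.36, edgeR adjusted p = 0.945). Over the alternative fits the fold change of Bag1 ran from -5.54 to -2.90, with a sign that its separated libraries largely fix in advance. Bag2, an inhibitor of the ubiquitin ligase CHIP, had 6674, 2 and 1 WT reads against 310, 4 and 725 Foxm1 HET reads. Bag3, a target of Hsf1 that acts in autophagy, had 20, 3621 and 2 WT reads against 654, 5 and 84 Foxm1 HET reads. In both genes 1 WT library set the fold change (-3.53 and -3.01), with 92.0% and 88.4% of the summed CPM, and the genotypes overlapped. Bag6, which guards membrane proteins before insertion, had 726, 18 and 7221 WT reads against 1792, 246 and 4090 Foxm1 HET reads (log2 fold change -1.41, standard error 1.92).

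The summed level of the 6 Bag genes was 291, 143 and 189 RPKM for WT against 45, 16.4 and 64.4 RPKM for Foxm1 HET. These sums did not overlap with TMM scaling, nor with library-size scaling (327, 144 and 143 RPKM in WT and 69.5, 7.42 and 108 RPKM in Foxm1 HET). In the TMM-scaled WT sums, Bag1 gave 105, 80.8 and 78.1 RPKM. Another gene was high in each, Bag2 at 166 RPKM in replicate 1, Bag3 at 61.8 in replicate 2 and Bag6 at 111 in replicate 3. Of the 10 families, CCT and Bag were those whose TMM-scaled sums did not overlap between the genotypes. Of single genes tested, 8.68% did not overlap, a share that does not carry over to sums of several genes. No such share was computed for sums, and no test was made of them. Each of the 3 genes with Hspb symbols had most of its reads in 1 library. Hspb6, a small heat-shock protein, had 133 reads in WT replicate 1, 11 in Foxm1 HET replicate 1, 1 in Foxm1 HET replicate 2 and none in the others. Hspbp1, an exchange factor of HSP70, had 306 reads in WT replicate 2, 4 in Foxm1 HET replicate 1 and none elsewhere. Hspbap1 had 421 reads in Foxm1 HET replicate 1, 1 each in WT replicate 3 and Foxm1 HET replicate 3 and none in the others.

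The 15 genes that were not tested had at least 10 reads in only 1 or 2 libraries each. They were Hspa1b, Hspa2, Hspb6, Hspbp1, Hspbap1, Dnaja3, Dnaja4, Dnajb3, Dnajb5, Dnajb12, Dnajc4, Dnajc24, Dnajc25, Dnajc30 and Bag4. Dnajc24, which takes part in diphthamide synthesis, had 4351 reads in Foxm1 HET replicate 3, 130 in Foxm1 HET replicate 1 and 0 to 9 in the other libraries. Dnajc4 had 284 and 645 reads in Foxm1 HET replicates 1 and 3 and 0 to 2 in the others.

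Sequence shared with other genes limits some of these counts. For 15 of the 73 genes, more than 10% of the transcript either had its 50-base stretches in another gene or overlapped exons of another annotated gene. The shares of such stretches were 62.3% for Hspa1b, 47.5% for Hsp90aa1, 42.7% for Dnaja4 and 39.4% for Hspa8, while Hsp90ab1 had 3.44%. How reads that map to several places were counted is not given, so the levels of these genes are less certain than those of the other 58.

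The cofactors that work with these chaperones but carry other names were described with a list of 51 genes, all in the count table and 36 of them tested. At an unadjusted p under 0.05 there were 0 of 36 in edgeR, with 16 log2 fold changes above 0, 20 below and a median of -0.75. Among the 36, 5 did not overlap, all lower in Foxm1 HET LT-HSCs, against 4.55% of all genes in that direction. The smallest p belonged to Cdc37l1, a relative of Cdc37, with 259, 3989 and 3846 WT reads against 327, 0 and 335 Foxm1 HET reads (log2 fold change -4.69, edgeR unadjusted p = 0.0517). Cdc37, which loads kinases onto HSP90, had 526, 1684 and 5743 WT reads against 487, 18 and 687 Foxm1 HET reads (log2 fold change -3.84, edgeR unadjusted p = 0.0899). Both were among the genes that did not overlap in log2 CPM. Hscb, the mitochondrial J protein of iron-sulfur cluster assembly, had 68, 4 and 14543 WT reads against 2428, 305 and 4 Foxm1 HET reads and overlapped (log2 fold change -3.04).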

How the data were processed

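Reads of 50 bases were aligned to GRCm38 (mm10) with STAR 2.7.2b, per the study's methods and the submitters' processing notes, which also name limma. The authors deposited a table of raw counts covering 27179 genes and another of normalized log2 values covering 12179 genes, which served here to choose the genes and as an alternative. Neither the counting program nor its handling of strand and multiply mapped reads is given in the sources used here. The methods name Trizol and a Clontech kit, while the labels add AllPrep, Ribo-Zero and a TruSeq stranded kit, so the library kit is uncertain.

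The genotypes were compared in R 4.3.3 by edgeR 4.0.16 (TMM, filterByExpr, quasi-likelihood test, Benjamini-Hochberg adjustment over 8195 genes), with log2 fold change over the square root of F as the standard error. A prior count of 2 entered log2 CPM. CPM were computed from the counts and the TMM-scaled library sizes, and RPKM also from the lengths in the count table. Alternatives were scaling by RLE, by the upper quartile or by library size alone, no filter, a minimum of 10 counts per library, a replicate block, leaving out each library, DESeq2 1.42.0, limma 3.58.1 with voom, and limma on the normalized table.

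Genes were named if they had an unadjusted p under 0.05 or genotypes that did not overlap, if they were the 2 highest genes per length of a family, a CCT subunit or a classical heat-shock gene, or the 3 genes of each other list with the smallest p. Others were named after their values were seen. Members, lists and tests were chosen with earlier results of these data known.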

Additional observations from a re-analysis of the deposited data

How the results depend on the processing

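The shallowest library, Foxm1 HET replicate 2, also had the fewest chaperone genes with at least 10 reads (37), and what its depth contributed was not tested. Correlations of same-numbered deviations were 0.016, -0.025 and -0.069, against -0.025 to 0.055 for the other cross-genotype pairs. No shared effect of the replicate number was thus seen, and at this spread between libraries that cannot show whether the mice were paired. With the replicate block 1 of 58 chaperone genes (Dnajc3) had an unadjusted p under 0.05, against 1.32% of all genes. With this block 0 of all genes had an adjusted p under 0.05, and the chaperone median was 0.050. All genes with an adjusted p under 0.05 numbered 27, and 10, 43 and 7 with RLE, upper-quartile and library-size scaling, 0 with at least 10 counts in every library, 194 with DESeq2, 4 with voom, 0 on the normalized table and 0 to 25 with 1 library left out. Chaperone genes with an unadjusted p under 0.05 numbered 5 of 58, against 6.03% of all genes. Of the same 58 they were 7 with RLE scaling (7.16% of all genes), 4 with upper-quartile scaling (5.69%) and 2 with library-size scaling (3.78%). They were 5 of 73 with no filter (7.06%), 6 of 73 on the normalized table (4.73%) and 2 of 29 with at least 10 counts in every library (6.24%). Voom gave 1 of 58 (Dnajc16, against 3.31%), and leaving out 1 library gave 1 to 6 of 58 (against 3.03% to 7.2%). DESeq2 gave 6, against 13.1% of the genes for which it gave a p. DESeq2 gave 2 at an adjusted p under 0.05, and each other alternative 0. Chaperone genes that did not overlap numbered 7, and 9 to 18 with 1 library left out, where 15.3% to 22% of all genes did not overlap. The chaperone median of -0.76 was -0.12 with at least 10 counts in every library, -0.052 with voom and from -0.90 to -0.22 with 1 library left out. Of all genes with an unadjusted p under 0.05, 57.1% were higher in Foxm1 HET, and 72.1% with upper-quartile scaling, 67.1% without WT replicate 1, 45.8% with DESeq2 and 40.7% without Foxm1 HET replicate 2.

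Of 528 log2 fold changes of 36 named genes under the alternatives, 66 changed sign, and 19 genes never did, the non-overlapping genes among them. The non-overlapping genes were named for the separation of these same libraries, which largely fixes their sign in advance, so this adds no support. The signs that turned were, with RLE scaling, Hsp90aa1 (0.64) and Hsp90ab1 (0.48); with upper-quartile scaling, Cct7 (0.38), Hsp90aa1 (0.28), Hsp90ab1 (0.29), Hspa8 (0.051) and Tcp1 (0.24). They were, with library-size scaling, Cct7 (0.73), Dnajb9 (-0.32), Hspa8 (0.19) and Tcp1 (0.37), with no filter Hsp90aa1 (0.013), and with at least 10 counts in every library Cct7 (0.34), Dnajb9 (-0.0067) and Tcp1 (0.14). With the replicate block they were Bag2 (2.55), Bag3 (2.44), Dnajc9 (0.67), Hsp90aa1 (0.11), Hspa4l (0.72), Hspa8 (0.011) and Tcp1 (0.39), and with DESeq2 Hsp90aa1 (0.64) and Hsp90ab1 (0.48). With voom they were Bag2 (1.95), Bag3 (0.15), Cct7 (0.077), Cct8 (0.14), Dnajb9 (-1.45), Dnajc9 (0.90), Hsp90b1 (-0.060), Hspa4l (1.86), Hspa8 (0.26) and Tcp1 (0.33). On the normalized table they were Cct7 (0.56), Cct8 (0.32), Dnajb9 (-0.96), Dnajc9 (0.78), Hsp90aa1 (0.19), Hspa8 (0.66) and Tcp1 (0.76). The cause of these changes was not tested.

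With 1 library left out, the log2 fold changes whose sign turned ran as follows. They were Bag2 from -4.37 to 6.89, Bag3 from -5.17 to 3.83, Cct4 from -1.81 to 0.27, Cct7 from -0.94 to 0.79, Dnaja2 from -0.46 to 0.57, Dnajb2 from -8.44 to 0.44, Dnajb9 from -2.15 to 2.53, Dnajc9 from -2.83 to 1.65. The others were Hsp90aa1 from -0.55 to 0.90, Hsp90ab1 from -0.48 to 0.31, Hsp90b1 from -0.22 to 0.48, Hspa4l from -3.92 to 10.05, Hspa5 from -0.19 to 0.60, Hspa8 from -0.72 to 0.14, Hspd1 from -0.13 to 1.32 and Tcp1 from -0.87 to 1.21.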

Other observations

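The chaperones of the ER were grouped after their values were seen, so their direction is a description. Of 13 such genes, 11 were tested, of which 9 had a log2 fold change above 0 and 2 below (Dnajc18 at -4.48 and Dnajb11 at -0.017), with a median of 0.62. Besides Dnajc3, Dnajc16, Hspa5, Hsp90b1 and Dnajb9, the genes above 0 were Hspa13, Dnajb14, Dnajc1 and Dnajc10, at 1.86, 3.63, 2.57 and 0.62. By TMM-scaled CPM, Foxm1 HET replicate 2, which had the lowest TMM factor (0.453), was the highest library for 6 of the 13 genes. Without this library 6 of the 11 were above 0, with a median of 0.17. The genotypes of Hspa5 and Hsp90b1 overlapped, and the part of these 2 genes in the reads summed over the 13 varied by library. In WT replicate 2, Dnajc18 had 9801 of the 20942 summed reads, against 4758 for Hspa5 and 4211 for Hsp90b1. Of 8 chaperones of mitochondria, grouped in the same way, 6 were tested, of which 2 were above 0 and 4 below, with a median of -1.56. Without WT replicate 3 their median was -0.19, and with RLE or upper-quartile scaling 3 of the 6 were above 0.

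Sensors, factors and enzymes of the unfolded protein response formed another list of 26 genes, of which 24 were tested. At an unadjusted p under 0.05, 2 were higher in Foxm1 HET LT-HSCs and 0 lower, against 3.44% and 2.59% of all genes, and the median log2 fold change was -0.40. Herpud1, which serves the degradation of ER proteins, had 628, 79 and 868 WT reads against 1636, 13864 and 30 Foxm1 HET reads (log2 fold change 4.66, standard error 1.78, edgeR unadjusted p = 0.00869, adjusted p = 0.441). Syvn1, the ubiquitin ligase of the same pathway, had 13, 536 and 6 WT reads against 352, 5955 and 4984 Foxm1 HET reads (log2 fold change 5.41, standard error 2.06, edgeR unadjusted p = 0.00881, adjusted p = 0.441). The genotypes overlapped for both, and Foxm1 HET replicate 2 was the highest library of each. Ddit3 (CHOP), a factor of prolonged ER stress, had 149, 133 and 996 WT reads against 24, 0 and 18 Foxm1 HET reads, which did not overlap (log2 fold change -6.08, standard error 3.55, edgeR unadjusted p = 0.0864).

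Immediate early genes, which respond within minutes to handling and dissociation of cells, were listed because heat-shock genes can respond to the same handling. Of 22, 21 were tested, and at an unadjusted p under 0.05 Foxm1 HET exceeded WT for 0 genes and WT exceeded Foxm1 HET for 2, against 3.44% and 2.59% of all genes. Nr4a2 had 19667, 19273 and 7117 WT reads against 444, 90 and 948 Foxm1 HET reads (log2 fold change -5.50, edgeR unadjusted p = 0.00301, adjusted p = 0.260). Klf4 had 5126, 10478 and 1536 WT reads against 731, 185 and 11 Foxm1 HET reads (log2 fold change -4.04, edgeR unadjusted p = 0.0458). The study reported both Nr4a2 and Klf4 as lower in Foxm1 HET HSCs by RT-PCR, and Foxm1 as enriched at the Nr4a2 promoter by Cut&Run. Atf3, next by p, had 6104, 6228 and 4524 WT reads against 1436, 157 and 34 Foxm1 HET reads (log2 fold change -3.73, edgeR unadjusted p = 0.0581). The summed CPM of the list ran from 5589 in Foxm1 HET replicate 3 to 35333 in Foxm1 HET replicate 2. By TMM-scaled CPM, Foxm1 HET replicate 2 was thus highest for the immediate early list, for Dnajb4 and for 6 of the 13 ER chaperone genes. Its TMM factor was the lowest (0.453), which raises its scaled levels. By library size alone, without that factor, it was still the highest library for the immediate early list and for Dnajb4. Of the 6 ER genes it was still the highest for Dnajc3 and, narrowly, Dnajc1 and Dnajc10, but not for Hspa5, Hsp90b1 or Dnajb9. The part of handling in those levels was not tested.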
